A study of Vachellia cornigera with 24 samples.

Results

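Extrafloral nectaries of Acacia cornigera from acacias given the ant labelled Gracilis were compared with nectaries from acacias whose ants had been removed for 2 days. The comparison holds 3 libraries a side, 6 of the 24 in the series, and 12264 genes were tested. It asks whether the other ant changes the nectary relative to having no ants. The members were taken from the sample labels alone. The labels name only Gracilis, with no genus, no colony size and no length of stay, and they give no clock hour for either treatment. The resident ant of the study is Pseudomyrmex ferrugineus. The nectaries of untreated acacias collected at 8 am, 3 libraries, serve as a further reference. The other ant treatments are gut contents with 2 libraries and 1 library at 9 am from acacias whose ants were put back after 2 days. The remaining libraries follow the time of day. Each replicate is a pool of nectaries from different individual plants, so differences between single plants cannot be seen.

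Extrafloral nectaries are glands outside flowers that secrete sugary fluid. In swollen-thorn acacias they feed the ants that live in the thorns and defend the plant. Sucrose made in the gland by sucrose phosphate synthase is exported by the transporter SWEET9 and cleaved outside the cell by cell wall invertase, a scheme known from floral nectaries of Arabidopsis and related plants. Nectar also carries secreted defence proteins such as chitinases, glucanases and osmotin-like proteins, and jasmonate is known to induce extrafloral nectar in many plants, while acacias that house ants are known to secrete it constitutively. The genes are named by their closest Arabidopsis locus in the deposited table, so each role given here is that of the Arabidopsis gene. Values are normalised counts, a scale without a fixed unit whose treatment of transcript length is not stated, and all were compared within a gene.

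The 6 libraries did not fall apart by treatment. Ants removed samples 2 and 3 were nearly alike, with a Pearson's r of 0.993 across genes on log2(value + 1) and a median absolute log2 difference of 0.0824. Ants removed sample 1 correlated at 0.962 with each of them, but at 0.984 with Gracilis sample 1. Gracilis sample 3 correlated at 0.985 with ants removed samples 2 and 3, above the 0.962, 0.973 and 0.981 found among the Gracilis libraries themselves. Between the groups r lay between 0.963 and 0.985. The squared difference over the sum of the paired values had a median of 1.2 for ants removed samples 2 and 3, over genes with a sum of at least 200, against 6.42 to 13.57 for the other pairs within a group. Counting error alone gives 0.455 for raw counts, and 4.59 was found for the same pair over genes with a sum of at least 20000. The raw depth behind the normalised values is unknown, so whether this pair is 1 source sequenced again cannot be told apart from very similar pools. The results below count them as separate libraries, and values with the pair taken as 1 are given where they matter. Total normalised counts ranged from 25594700 to 25930100 in Gracilis libraries and from 26015400 to 27077100 in ants removed libraries.

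**Figure D1:**
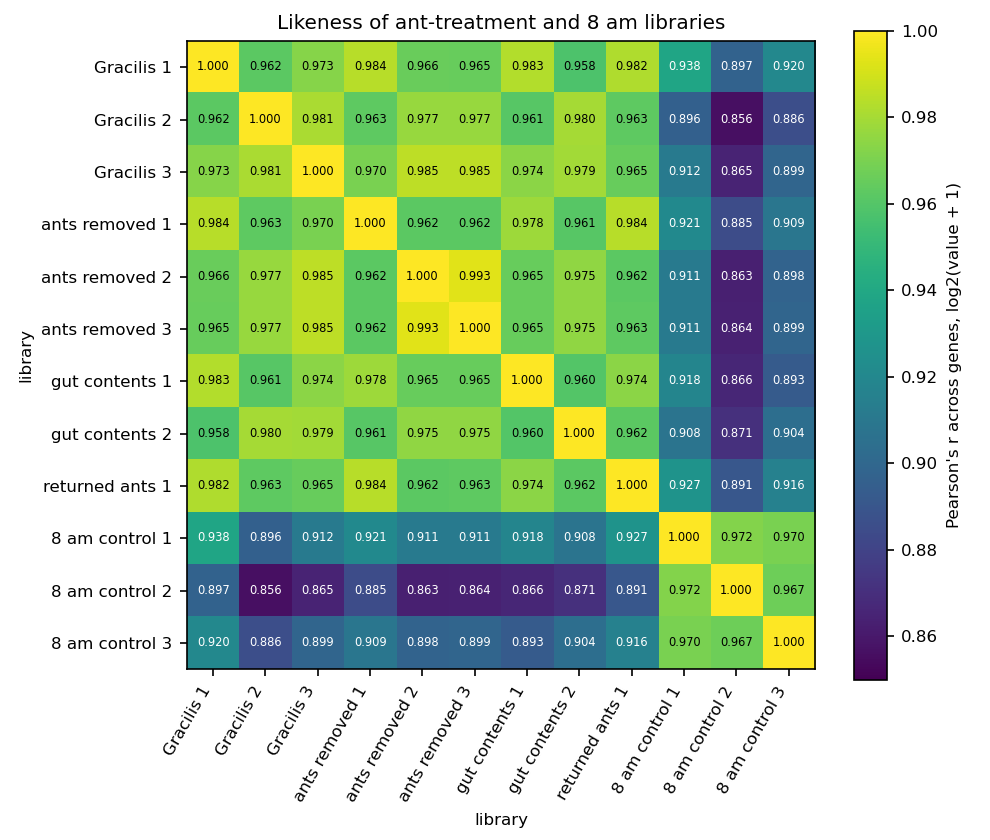
Pearson's r across the 12264 tested genes, on log2(value + 1), between the ant-treatment libraries and the 8 am control libraries (rows and columns are libraries, colour and number give r). Ants removed samples 2 and 3 share 0.993, and Gracilis sample 1 lies closer to ants removed sample 1 (0.984) than to Gracilis sample 2 (0.962).

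No gene was called different between the nectaries given Gracilis and those without ants. With limma's moderated test on log2(value + 1) and Benjamini-Hochberg adjustment over all genes, 0 of 12264 genes passed an adjusted p of 0.05 (0% called), and the smallest adjusted p was 1. At an unadjusted p under 0.05 there were 76 genes, 0.62% of those tested, 40 with a higher estimate (0.326%) and 36 with a lower one (0.294%). With no difference in any gene, about a fraction of 0.05 would pass that threshold, so the p values and intervals of this fit may be too cautious here. The share was 1.49% without the time course and 1.74% in the 6 libraries alone, with 0 calls in each. The reason was not tested. The smallest unadjusted p was 0.00319. Over all genes 56.3% of estimates lay above 0 and 43.7% below. The median log2 fold change over all genes was 0.02, and the median absolute log2 fold change was 0.104. The median standard error was 0.262, more than the typical difference. The 95% interval of the difference lay within 2-fold in both directions for 9030 genes (73.6%). For the remaining genes a change of 2-fold or more lay inside the interval. How often a true 2-fold change would have been called is not reported here, for these genes or the others.

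The same fit did separate both treatments from the untreated 8 am nectaries. Gracilis against 8 am called 3729 genes (30.4%), 1684 of them higher and 2045 lower. Ants removed against 8 am called 3368 genes (27.5%), 1421 higher and 1947 lower. The median absolute log2 fold change was 0.464 for Gracilis against 8 am and 0.437 for ants removed against 8 am. Both contrasts share the 8 am libraries. Time of day was called for 4865 genes (39.7%) among the time course libraries, and since neither treatment has a stated hour, treatment and hour cannot be told apart in the contrasts with 8 am.

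**Figure D2:**
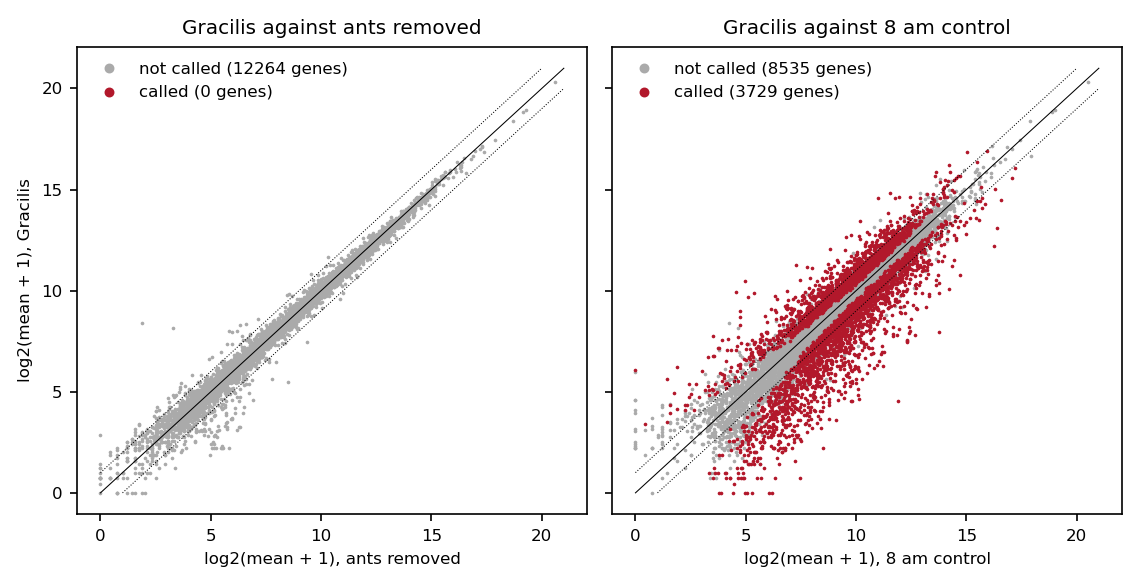
Mean normalised count per gene on a log2(mean + 1) scale, Gracilis on the vertical axis against ants removed (left) or the 8 am control (right); red points passed an adjusted p of 0.05, the solid line marks equality and the dotted lines 2-fold. No point is red on the left, where genes hug the line except at low counts, and 3729 are red on the right.

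Counting genes whose 3 Gracilis libraries all lay on one side of the 3 ants removed libraries gave 440 genes above (3.59%) and 278 below (2.27%). With means at least 2-fold apart as well, 18 genes lay above (0.147%) and 35 below (0.285%). Requiring a mean of at least 100 in the higher group left 3 above and 0 below. AT2G29110, glutamate receptor 2.8, a ligand-gated ion channel family, had 181, 169 and 340 normalised counts in Gracilis nectaries, against 113, 109 and 99 in ants removed nectaries. AT4G36670, a transporter of the major facilitator superfamily, had 208, 264 and 164 in Gracilis nectaries, against 56, 104 and 94 in ants removed nectaries. AT3G44220, a late embryogenesis abundant hydroxyproline-rich glycoprotein, had 144, 239 and 286 in Gracilis nectaries, against 136, 93 and 97 in ants removed nectaries. Their unadjusted p values were 0.0111, 0.049 and 0.0237 by limma, and none passed the adjustment. These 3 were singled out by their values.

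Genes of nectar sugar secretion showed no called difference: 0 of 15 tested members passed, 6 estimates were above 0 and 9 below, and the list's median log2 fold change was -0.02 beside 0.02 over all genes. SWEET9, the sucrose exporter, had 157651, 186549 and 195941 in Gracilis nectaries, against 148801, 287499 and 290122 in ants removed nectaries. The 2 near-identical ants removed libraries stood above all others and ants removed sample 1 below all Gracilis libraries, so the groups overlapped. The log2 fold change was -0.37 (95% interval -1.88 to 1.14), and the interval was -1.15 to 0.41 when the time course was left out of the fit. CWINV4, the cell wall invertase of nectaries, had 10563, 5917 and 9725 in Gracilis nectaries, 8579, 12606 and 12742 in ants removed nectaries, and 69379, 99011 and 88628 at 8 am. Its 6 treatment libraries all lay far below the 8 am libraries, with log2 fold changes of -3.32 for Gracilis against 8 am and -2.93 for ants removed against 8 am (limma adjusted p 5.67e-05 and 0.000124), while between the treatments the difference was -0.39 (interval -1.25 to 0.46). CWINV2 showed the same order, with means of 1335 ± 370 in Gracilis nectaries, 1612 ± 407 in ants removed nectaries and 13989 ± 2887 at 8 am (SD, n = 3 each). SPS1F, a sucrose phosphate synthase, averaged 10041 ± 1163 in Gracilis nectaries, 9919 ± 1391 in ants removed nectaries and 6102 ± 389 at 8 am (SD, n = 3 each). Its difference between the treatments was 0.02 (interval -0.41 to 0.45), one of the narrower intervals among these genes. STP1, a hexose importer, had 1295, 1984 and 1782 in Gracilis nectaries and 1276, 1770 and 1728 in ants removed nectaries, with sample 1 lowest in both. The sucrose synthases SUS1 and SUS3 differed by -0.05 and -0.02, and SWEET1 by -0.01, on the log2 scale.

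Starch, the store that nectaries of many plants draw on before secretion, also gave no call. In starch synthesis 0 of 14 tested members were called, with 7 estimates above 0 and 7 below, and a median of 0.01. In starch breakdown 0 of 20 were called, with 14 above 0, 6 below and a median of 0.11. BAM1, a beta-amylase, had 14319, 11196 and 10224 in Gracilis nectaries and 10992, 15047 and 14678 in ants removed nectaries. BAM6, another beta-amylase, had 123, 123 and 116 in Gracilis nectaries and 78, 106 and 101 in ants removed nectaries, so its libraries did not overlap, but the log2 difference of 0.35 had an unadjusted p of 0.258. AMY1, an alpha-amylase, lay below without overlap, with 841, 993 and 950 in Gracilis nectaries and 1025, 1071 and 1089 in ants removed nectaries (limma unadjusted p 0.284). Over all genes 3.59% lay above and 2.27% below without overlap.

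The circadian clock genes were examined because the hour of collection is not stated for either treatment. None of the 7 morning genes and 9 evening genes tested was called, and the list medians were -0.03 and 0.11. LHY, the morning repressor at the core of the clock, had 163382, 123275 and 134036 in Gracilis nectaries, against 107866, 186662 and 183608 in ants removed nectaries. TOC1, its evening counterpart, had 2342, 1881 and 1896 in Gracilis nectaries, against 2075, 1472 and 1562 in ants removed nectaries. GI, an evening clock and flowering regulator, had 744, 762 and 631 in Gracilis nectaries, 362, 1018 and 938 in ants removed nectaries, and 4347, 3068 and 4364 at 8 am. LNK1, a light-regulated clock coactivator, had 2865, 3558 and 2569 in Gracilis nectaries, against 1308, 5137 and 4937 in ants removed nectaries. For LNK1 and GI the spread of the ants removed group, sample 1 against samples 2 and 3, enclosed all Gracilis libraries. The shared spread of the fit includes time points at which these genes vary widely, so their intervals are wide: the log2 difference of LHY was -0.15 with an interval of -1.92 to 1.62, against -0.76 to 0.46 without the time course. Time of day was called for 12 of the 18 genes in the plot by library, beside 39.7% of all genes.

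**Figure D3:**
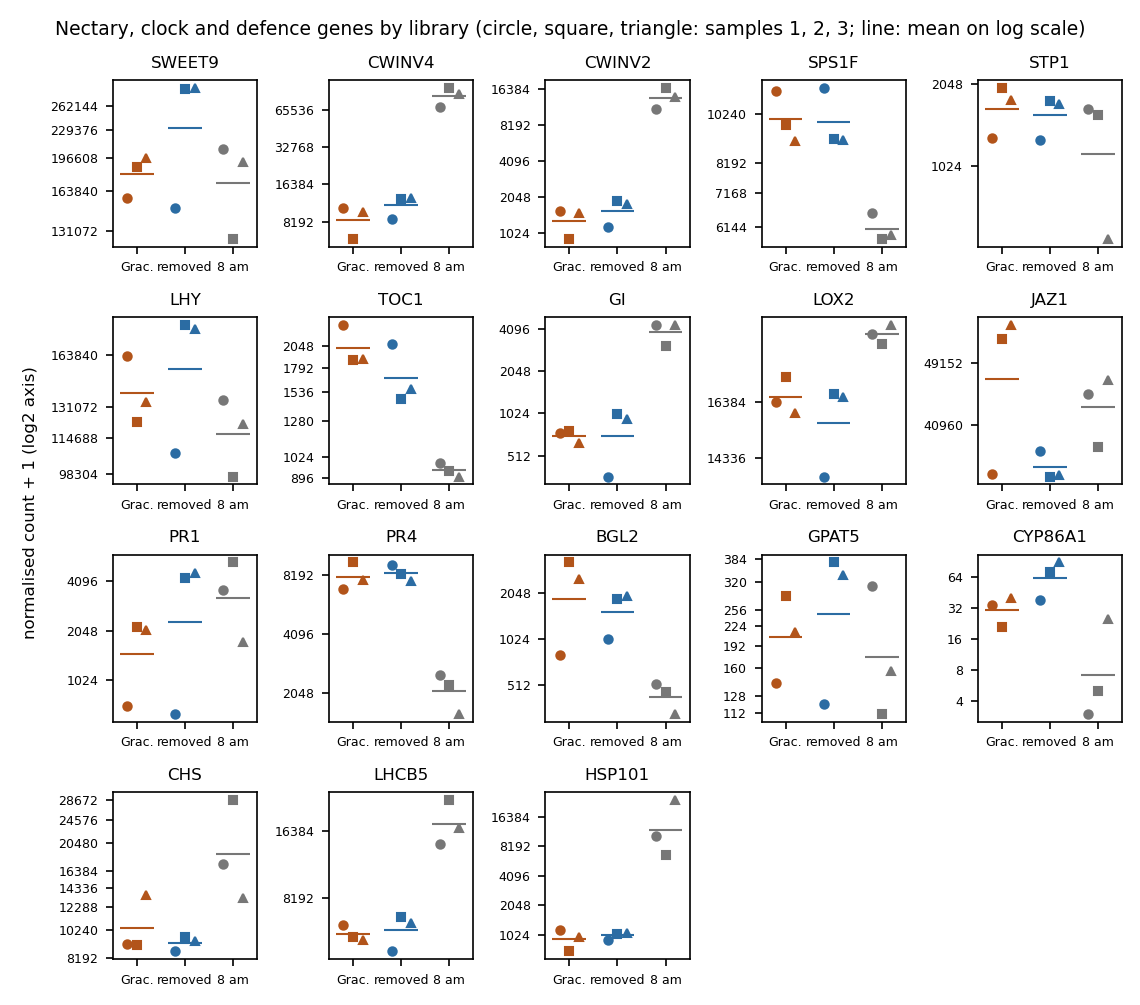
Normalised count + 1 on a log2 axis for 18 genes of sugar secretion, clock, defence, suberin, flavonoid, photosynthesis and heat shock, in Gracilis (orange), ants removed (blue) and 8 am control (grey) libraries; circles, squares and triangles are samples 1, 2 and 3, and lines are means on the log scale. Gracilis and ants removed libraries overlap for all 18 genes, and for CWINV4, CWINV2, SPS1F, TOC1, GI, LOX2, PR4, BGL2, LHCB5 and HSP101 all libraries of both treatments lie on one side of the 8 am libraries.

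Among these 18 genes, 0 were called between the treatments and 18 had overlapping libraries. Against the 8 am control, 8 of them were called for Gracilis, beside 30.4% of all genes, and 9 for ants removed, beside 27.5%. The shared 8 were CWINV4, CWINV2, SPS1F, GI, PR4, BGL2, CHS and HSP101. The gene added for ants removed was CYP86A1, with adjusted p values by limma of 0.0567 for Gracilis and 0.00849 for ants removed against 8 am, and its difference between the treatments was itself not called.

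Jasmonate is made from membrane lipids on wounding. None of 15 tested members of its synthesis and signalling was called, with 11 estimates above 0, 4 below and a median of 0.09. LOX2, the chloroplast lipoxygenase that starts the pathway, had 16416, 17412 and 15971 in Gracilis nectaries, against 13703, 16721 and 16590 in ants removed nectaries (log2 difference 0.09, interval -0.51 to 0.69). AOS, which makes the first committed intermediate, had 9061, 13482 and 9195 in Gracilis nectaries, against 7634, 8300 and 8362 in ants removed nectaries. OPR3, the reductase of the later peroxisomal step, had 919, 1441 and 970 in Gracilis nectaries, against 796, 664 and 636 in ants removed nectaries. In both genes, 2 of the 15, all Gracilis libraries lay above all ants removed libraries, beside 3.59% of all genes, and Gracilis sample 2 was highest. OPR3 had an unadjusted p of 0.043 for a log2 difference of 0.64, and AOS had 0.337 for 0.36. AOC4, the cyclase between them, had 1354, 6998 and 1348 in Gracilis nectaries, against 1513, 1232 and 1104 in ants removed nectaries, so its estimate of 0.88 rested on Gracilis sample 2. JAZ1, a repressor that jasmonate removes and then re-induces, had 35521, 52761 and 55043 in Gracilis nectaries, against 38034, 35247 and 35463 in ants removed nectaries. Here Gracilis samples 2 and 3 lay above and sample 1 among the ants removed libraries. MYC2, the main transcription factor of the pathway, differed by -0.05.

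The touch and rapid wound list, made up of early stress transcription factors and the calmodulin-like TCH3, had 7 tested members and a median of -0.55, the lowest of the gene lists, and 4 members had their lowest value among the 6 libraries in Gracilis sample 2. ERF4, an ethylene response repressor, had 42970, 5455 and 29859 in Gracilis nectaries, against 36378, 37649 and 35615 in ants removed nectaries. ERF109, a factor induced early by wounding and jasmonate, had 4659, 196 and 2887 in Gracilis nectaries, against 3510, 4021 and 4028 in ants removed nectaries. ERF5 and the zinc finger factor ZAT10 were likewise lowest in Gracilis sample 2 of these 6 libraries, at 2426 and 3320. Outside the comparison, gut contents sample 2 was lower still in all 4 genes, at 3721 for ERF4, 62 for ERF109, 1918 for ERF5 and 2395 for ZAT10. ZAT10 was also lower in 8 am samples 2 and 3, at 2519 and 2523. Summed over the list, these genes took 0.401%, 0.147% and 0.317% of the normalised counts in Gracilis nectaries, against 0.348%, 0.353% and 0.348% in ants removed nectaries. Of the 7 members, 2 estimates were above 0 and 5 below. WRKY40, a stress transcription factor, had 5209, 4679 and 5653 in Gracilis nectaries, against 4563, 4446 and 4548 in ants removed nectaries. It was the 1 member without overlap, beside 3.59% of all genes above. ERF13 had the list's smallest unadjusted p by limma, 0.157, for a log2 difference of 0.42. None of the 7 members was called.

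Salicylate and pathogen response genes gave 0 calls among 19 tested, 15 estimates above 0 and a median of 0.15. PR1, the classical salicylate marker, had 714, 2158 and 2069 in Gracilis nectaries, against 641, 4270 and 4585 in ants removed nectaries. Sample 1 was lowest in both groups, and the log2 difference of -0.66 had an interval of -2.28 to 0.96. BGL2, a secreted beta-1,3-glucanase, had 803, 3269 and 2558 in Gracilis nectaries, against 1019, 1873 and 1960 in ants removed nectaries, again with sample 1 lowest in both. WRKY70, a factor at the meeting point of salicylate and jasmonate signals, had 3255, 6022 and 9135 in Gracilis nectaries, against 4396, 3598 and 3525 in ants removed nectaries (unadjusted p 0.099). WRKY18 had 54, 133 and 577 in Gracilis nectaries, against 609, 31 and 45 in ants removed nectaries, with no order by treatment.

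Secreted defence proteins of the kind found in nectar gave no call among 11 tested members. The median was -0.23, with 4 estimates above 0 and 7 below. In 1 of the 11 all Gracilis libraries lay below all ants removed libraries, beside 2.27% of all genes. PR4, a chitin-binding protein, had 7021, 9552 and 7768 in Gracilis nectaries, against 9284, 8370 and 7676 in ants removed nectaries. It was measured tightly, with a log2 difference of -0.07 and an interval of -0.46 to 0.33, and its means of 8114 ± 1300 in Gracilis nectaries and 8443 ± 807 in ants removed nectaries both exceeded the 2137 ± 480 at 8 am (SD, n = 3 each; limma adjusted p 1.85e-05 and 1.86e-05). OSM34, an osmotin, had 757543, 384184 and 382002 in Gracilis nectaries, against 1034355, 431453 and 436534 in ants removed nectaries. In each group sample 1 held the most. The returned ants library held 872476 and the gut contents libraries 584052 and 417307. CHIV, a chitinase, ran the other way, with 37023, 60962 and 76163 in Gracilis nectaries, against 28514, 132028 and 129680 in ants removed nectaries. CHIA, an acidic chitinase, had 71214, 62265 and 74488 in Gracilis nectaries, against 90742, 75306 and 77350 in ants removed nectaries, without overlap but with an unadjusted p of 0.555. AT4G19800, a glycosyl hydrolase with a chitinase domain, had the smallest p of the chitinase and glucanase family (0.0205), at 45, 349 and 370 in Gracilis nectaries, against 23, 93 and 53 in ants removed nectaries.

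Several of these genes had sample 1 at the same end in both groups. Deviations from the group means correlated at 0.51 between the 2 samples 1, and at 0.22 to 0.34 between samples 2 and 3 of one group and samples 2 and 3 of the other. Within a group the deviations sum to 0, and ants removed samples 2 and 3 were nearly alike, so these values are not independent of each other. A fit with the sample number as a block still made 0 calls, and its smallest adjusted p by limma was 0.509.

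Barrier and wall genes were compared next. Suberin, the waxy polymer of sealed cell walls, had 8 tested members, 0 called, 7 estimates below 0 and a median of -0.38. CYP86A1, a fatty acid hydroxylase of suberin synthesis, had 33, 20 and 39 in Gracilis nectaries, 37, 71 and 88 in ants removed nectaries, and 2, 4 and 24 at 8 am. ASFT, the feruloyl transferase, had 232, 386 and 212 in Gracilis nectaries, against 201, 617 and 622 in ants removed nectaries. GPAT5, the suberin acyltransferase, had 141, 285 and 213 in Gracilis nectaries, against 119, 373 and 336 in ants removed nectaries. In all 3 genes the upper values were those of the near-identical ants removed pair, and ants removed sample 1 lay among or below the Gracilis libraries. FAR1, a fatty acid reductase, went the other way at low counts, with 19, 5 and 4 in Gracilis nectaries, against 2, 3 and 2 in ants removed nectaries. It was the 1 suberin gene without overlap, beside 3.59% of all genes above, and had the list's smallest unadjusted p by limma, 0.059. Cuticle and wax genes had 22 tested members with a median of 0.02, and phenylpropanoid and flavonoid genes had 23 with a median of 0.12, with 0 calls in each. CHS, the entry enzyme of flavonoids, had 9137, 9055 and 13547 in Gracilis nectaries, against 8637, 9654 and 9388 in ants removed nectaries.

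Photosynthesis and heat shock genes gave no call either. Of 36 tested photosynthesis genes 0 were called, 29 estimates were above 0 beside 56.3% of all genes, and every estimate lay between -0.09 and 0.28. LHCB5, a light-harvesting protein, had 6183, 5428 and 5283 in Gracilis nectaries, against 4678, 6674 and 6287 in ants removed nectaries. LHCB1.2 had 5271, 4829 and 4053 in Gracilis nectaries, against 2145, 6094 and 6275 in ants removed nectaries, so the ants removed group enclosed the Gracilis group. Of 16 tested heat shock genes 0 were called, 13 estimates were below 0 beside 43.7% of all genes, and the median was -0.19. In 3 of the 16 all Gracilis libraries lay below all ants removed libraries, beside 2.27% of all genes. These were the small heat shock proteins HSP21 and HSP23.5 and the HSP70 cofactor FES1A, with log2 differences of -0.29, -0.21 and -0.12. HSP101, a chaperone that dissolves protein aggregates, had 1132, 693 and 978 in Gracilis nectaries, 908, 1053 and 1078 in ants removed nectaries, and 10323, 6672 and 24324 at 8 am. HSP90.1 had 19, 21 and 48 in Gracilis nectaries, against 15, 155 and 145 in ants removed nectaries, where samples 2 and 3 stood high and sample 1 did not. Of 9 tested iron genes 0 were called, 6 estimates were above 0 and the median was 0.16. The ferritin FER4, an iron store, had 93, 107 and 64 in Gracilis nectaries, against 88, 287 and 358 in ants removed nectaries, and an unadjusted p of 0.0228. PYE, a regulator of the iron deficiency response, had 1009, 1208 and 1030 in Gracilis nectaries, against 962, 915 and 859 in ants removed nectaries. It was the 1 iron gene without overlap, beside 3.59% of all genes above (limma unadjusted p 0.19).

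Cell division genes, at low counts, had more estimates below 0 than above. None of 19 tested members was called, and the median was -0.10. Of the estimates 12 were below 0, beside 43.7% of all genes, and 7 above. Summed over the list, these genes took 0.012%, 0.00838% and 0.00896% of counts in Gracilis nectaries. In ants removed nectaries they took 0.0117%, 0.01% and 0.01%, so the summed levels overlapped. In 5 of the 19 all Gracilis libraries lay below all ants removed libraries, beside 2.27% of all genes, and in 0 they lay above. KNOLLE, the syntaxin of cytokinesis, had 10, 30 and 11 in Gracilis nectaries, against 33, 31 and 68 in ants removed nectaries (unadjusted p 0.0284). CYCB1;2, a mitotic cyclin, had 37, 58 and 23 in Gracilis nectaries, against 64, 97 and 110 in ants removed nectaries (unadjusted p 0.0402). CDKB2;1, a mitotic kinase, had 45, 46 and 32 in Gracilis nectaries, against 50, 121 and 120 in ants removed nectaries. PCNA1 and TSO2, of DNA synthesis, were the other non-overlapping members, with log2 differences of -0.19 and -0.67. The replication licensing genes MCM2 to MCM7 overlapped, with differences between -0.18 and 0.47. The list was not tested as a set.

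**Figure D4:**
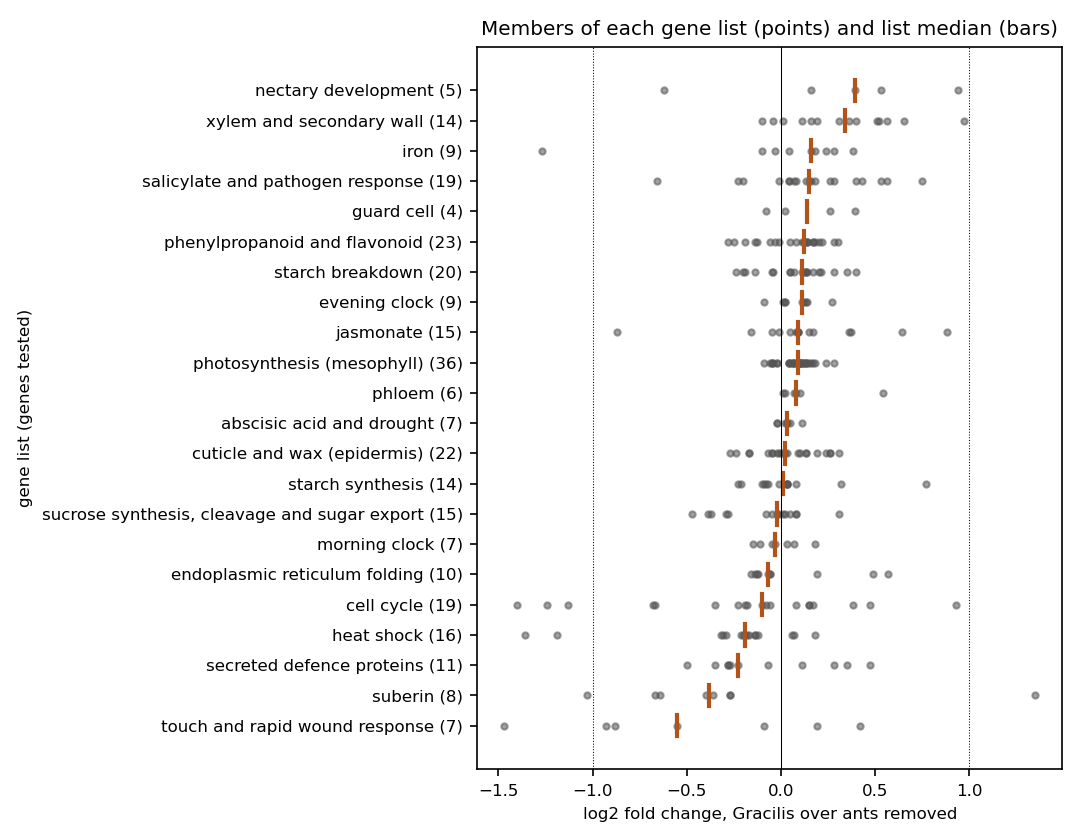
Log2 fold change of Gracilis over ants removed for each tested member (grey points) of 22 gene lists, with the list median as an orange bar; lists are ordered by median, the number of tested genes is in brackets, and dotted lines mark 2-fold. Medians run from -0.55 for touch and rapid wound response to 0.39 for nectary development, and no point is a called gene.

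The 10 genes with the smallest p among higher estimates and the 10 among lower ones were taken as the leading candidates, none of which passed the adjustment. Of the higher ones, 7 had libraries that did not overlap, beside 3.59% of all genes, and 5 had a Gracilis mean of at least 100. Choosing genes by smallest p favours libraries that do not overlap, so nothing is read from such counts here. AT3G20180, a copper transport family protein, had 229, 94 and 171 in Gracilis nectaries, against 103, 75 and 61 in ants removed nectaries and 374, 451 and 429 at 8 am. Its log2 difference of 0.98 (SE 0.29, limma unadjusted p 0.00319) was the smallest p of all genes, although Gracilis sample 2 lay below ants removed sample 1. AT1G61660, a bHLH transcription factor, had 201, 296 and 318 in Gracilis nectaries, against 109, 173 and 180 in ants removed nectaries. AT3G18670, an ankyrin repeat protein, had 10006, 14057 and 14231 in Gracilis nectaries, against 8517, 9608 and 9392 in ants removed nectaries and 6927, 7555 and 7840 at 8 am. Its difference was small but even, at 0.46 (SE 0.16, limma unadjusted p 0.0104). AT1G61680, terpene synthase 14, which makes the volatile linalool in Arabidopsis, had 19, 994 and 6 in Gracilis nectaries, against 0, 2 and 6 in ants removed nectaries. Its log2 difference of 4.23 rested on Gracilis sample 2. AT1G75240, a homeobox factor, AT1G27660, a bHLH factor, and AT3G09550, an ankyrin repeat protein, stayed at or under 10 in all 6 libraries. AT5G17890, DA1-related protein 4, had 38, 24 and 42 in Gracilis nectaries, against 22, 5 and 6 in ants removed nectaries. AT1G75620, related to glyoxal oxidase, had 42, 16 and 17 in Gracilis nectaries, against 10, 6 and 6 in ants removed nectaries.

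All 10 genes on the lower side had low values, and the highest ants removed mean among them was 78.3. AT4G35620, the mitotic cyclin B2;2, had 6, 13 and 3 in Gracilis nectaries, against 12, 32 and 33 in ants removed nectaries and 27, 44 and 30 at 8 am. AT2G37420, a microtubule motor of the kinesin kind, had 7, 1 and 1 in Gracilis nectaries, against 6, 11 and 18 in ants removed nectaries. AT5G67270, EB1C, which binds the growing ends of microtubules, had 7, 5 and 6 in Gracilis nectaries, against 16, 36 and 32 in ants removed nectaries. AT5G62550, a microtubule-associated protein by its description, had 28, 24 and 25 in Gracilis nectaries, against 30, 92 and 113 in ants removed nectaries. AT2G41110, calmodulin 2, had 43, 9 and 36 in Gracilis nectaries, against 58, 53 and 89 in ants removed nectaries. AT5G16250, a transmembrane protein, had 22, 11 and 19 in Gracilis nectaries, 48, 82 and 73 in ants removed nectaries, and 68, 167 and 113 at 8 am. The remaining 4 were AT2G43710, an acyl carrier protein desaturase, AT3G01600, the factor NAC44, AT3G16360, a phosphotransmitter, and AT5G38300, with unadjusted p values by limma between 0.00925 and 0.0220. In 7 of the 10 the groups did not overlap, beside 2.27% of all genes, a count that the choice by smallest p again favours. Time of day was called for 5 of the 10 higher and 2 of the 10 lower genes, beside 39.7% of all genes.

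**Figure D5:**
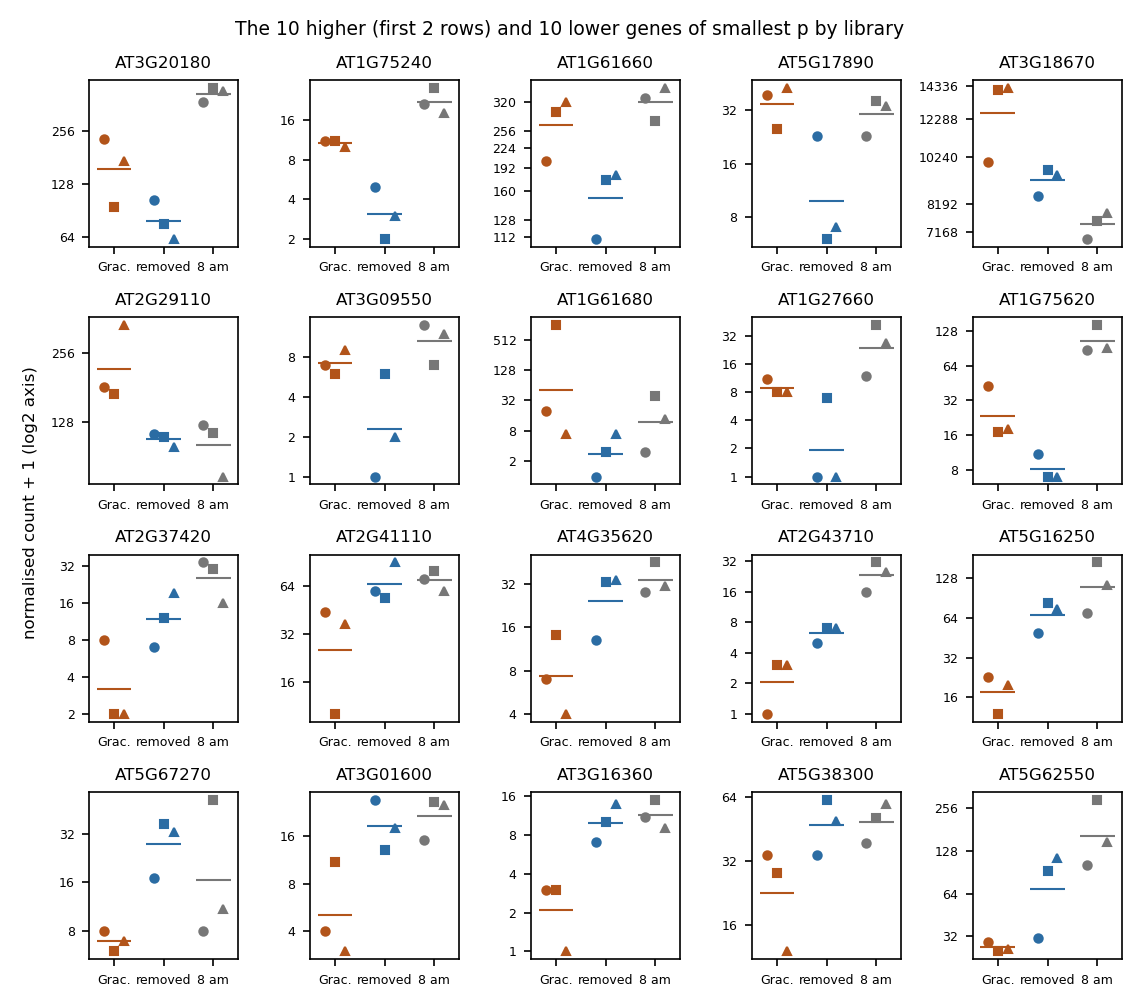
Normalised count + 1 on a log2 axis for the 10 higher (upper rows) and 10 lower (lower rows) genes of smallest unadjusted p, in Gracilis (orange), ants removed (blue) and 8 am control (grey) libraries; symbols mark samples 1, 2 and 3 and lines the mean on the log scale. Libraries of the treatments do not overlap in 7 of 10 genes on each side, and AT1G61680 is high in Gracilis sample 2 only (994).

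Larger gene families gave no call either. Receptor-like kinases, surface receptors of growth and defence, had 128 tested members and a median of 0.12. Of their estimates 92 lay above 0, beside 56.3% of all genes. Without overlap, 11 members lay above and 0 below, beside 3.59% of all genes above and 2.27% below. Their smallest unadjusted p was 0.0458, for AT4G21400, with 270, 355 and 383 in Gracilis nectaries, against 203, 223 and 262 in ants removed nectaries. Ribosomal protein genes had 209 tested members and a median of 0.00. AT2G36620, ribosomal protein L24, had 0, 10 and 8 in Gracilis nectaries, against 8, 46 and 50 in ants removed nectaries (unadjusted p 0.0332). Cytochrome P450 genes had a median of 0.08 over 58 members and glycosyltransferases 0.10 over 49. WRKY, NAC and ERF factors had a median of 0.02 over 71. The mitochondrial gene ATMG01360, cytochrome oxidase, had 74, 195 and 265 in Gracilis nectaries, against 180, 908 and 907 in ants removed nectaries, and gave the smallest adjusted p under the sample-number block.

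Markers of the other cell types a pooled nectary may hold were measured beside these results. Since these are bulk samples, fewer cells of a type and less RNA per cell cannot be told apart. Xylem and secondary wall genes had 12 of 14 estimates above 0 and a median of 0.34, and their summed level was 0.0223% to 0.0271% of counts in Gracilis nectaries, against 0.0184% to 0.0217% in ants removed nectaries. FLA12, a fasciclin-like wall protein, had 907, 75 and 187 in Gracilis nectaries, against 254, 93 and 71 in ants removed nectaries, with sample 1 highest in both. None of the 14 tested xylem markers was at 0 in any of the 6 libraries. Phloem markers summed to 0.0507% to 0.0543% in Gracilis nectaries and to 0.0492% in each ants removed library. Guard cell markers summed to 0.00515% to 0.00651% in Gracilis nectaries and to 0.00387% to 0.00621% in ants removed nectaries. Photosynthesis genes as mesophyll markers summed to 0.778% to 0.95% in Gracilis nectaries, against 0.698% to 0.844% in ants removed nectaries. No marker was called, and the part of these shifts in other genes was not tested. Of the 11 nectary development loci listed, 5 were tested, with 4 estimates above 0, 1 below and a range of -0.62 to 0.94. BOP1, a regulator of lateral organs, had 202, 207 and 233 in Gracilis nectaries, against 124, 186 and 140 in ants removed nectaries. It was the 1 member without overlap, beside 3.59% of all genes above, and had the list's smallest unadjusted p by limma, 0.103. The nectary genes SWEET9 and CWINV4 differed by -0.37 and -0.39.

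The absence of calls depended on giving libraries equal weight or on taking ants removed samples 2 and 3 as 1 library. When limma weighted libraries by how closely each follows its group, 343 genes were called, 151 higher and 192 lower, 17 of the 38 genes named by rule among them. Those weights were 0.704, 0.896 and 4.21 for Gracilis samples 1 to 3, against 0.394, 4.42 and 7.1 for ants removed samples 1 to 3. Of the 343 genes, 88 (25.7%) had libraries that did not overlap. With ants removed samples 2 and 3 taken as 1 library, the same weighting made 0 calls, and 237 genes had an unadjusted p under 0.05. Without weights, taking that pair as 1 library also made 0 calls, and 29 genes had an unadjusted p under 0.05.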

How the data were processed

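Nectaries pooled from several plants per replicate were sequenced as 24 paired-end libraries, per the labels' protocols. Values in the deposited table are a score without a set unit, namely read counts that the authors normalised between libraries and rounded. How they were scaled, aligned and assembled is not given in the sources used here, so the raw depth is unknown and no sampling interval was computed. Genes are named by the closest Arabidopsis locus, per the file headers, and no genome was used. Of 12650 genes, 386 with a mean under 10 over all libraries were left out. Values were tested as log2(value + 1), which understates the change of low genes, with limma 3.58.1 (R 4.3.3), a mean-variance trend and a coefficient for each of 10 groups (14 residual degrees of freedom). Tests were 2-sided, adjusted by Benjamini-Hochberg over 12264 genes at 0.05, and the fit was tested on simulated data.

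The rule named 18 preset genes and the 10 smallest p in each direction. The comparison, these genes and the 34 lists (22 of Arabidopsis loci, 299 of 429 in the table, and 12 from descriptions) were chosen with earlier results of these data known. Other list members were named after their values were seen. Same-numbered Gracilis and ants removed samples deviated together (r 0.51, 0.22 and 0.34 across genes), so the number was tried as a block, although no label says why samples should pair, and samples 2 and 3 correlate as well with each other's number. Since deviations sum to 0 within a group, these r values are not independent. In all, 21 alternatives were planned, and 4 were added after seeing the data.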

Additional observations from a re-analysis of the deposited data

How the results depend on the processing

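Under 24 of 25 alternatives 0 genes were called. The exception was array quality weights, with 343 called, 151 higher and 192 lower, and 0 with ants removed samples 2 and 3 as 1 library. Leaving out 1 library at a time made 0 calls each time. It left 40 to 199 genes with an unadjusted p under 0.05, and the smallest adjusted p, 0.716, came without ants removed sample 1. Without the time course in the fit 183 genes had an unadjusted p under 0.05 and 80.3% of intervals lay within 2-fold. The replicate block made 0 calls and so changed none. In the 6 libraries alone it gave 406 genes with an unadjusted p under 0.05 (smallest adjusted p 0.509), and with the 8 am libraries 226 (0.479). Leaving out both samples 1 gave 150 at an unadjusted p under 0.05, and a block of sample 1 against later samples gave 458.

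Of 897 pairs of a named gene and an alternative, 845 kept the direction and stayed uncalled. In 35 the direction turned, none past 0.5 on the log2 scale. The 17 named genes called with array quality weights kept their direction. Leaving out 1 library at a time, log2 differences ran from -0.07 to 0.13 for SPS1F, -0.07 to 0.26 for STP1, -0.46 to 0.28 for GI, -0.01 to 0.14 for LOX2, -0.19 to 0.03 for PR4, -0.12 to 0.90 for BGL2, -0.79 to 0.03 for GPAT5, -0.02 to 0.27 for CHS, -0.21 to 0.05 for LHCB5 and -0.29 to 0.06 for HSP101. With the near-identical pair as 1 library, with both such pairs so, or with the pair as 1 and no time course, SPS1F was at -0.04 and LHCB5 at 0.03. Median-of-ratios scaling put SPS1F and GI at 0, as quantile normalisation did GI. Array weights gave GI -0.50 and LOX2 -0.03, and with the pair as 1 library SPS1F -0.12, PR1 0.11 and GPAT5 0.04. Without both samples 1, GI was at -0.49 and PR4 at 0.10. The cause was not tested. The raw depth is unknown, so what it limits cannot be stated.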
